A study of Mus musculus with 29 samples.

Results

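The comparison described here is 24 h of TGFβ against medium alone in NMM cells, a mouse melanoma cell line with a mutation of NRAS. It rests on 8 of the 29 RNA-seq libraries of the series: the 4 that passed from medium into TGFβ (10 ng/ml) for 24 h, and the 4 that passed from medium into fresh medium for the same 24 h. Each group holds 1 library for each length of the first period, which was 2, 6, 12 or 24 h, and these libraries were taken as the replicates of their group. The labels name no repeat culture within a duration, so the p-values measure spread between libraries, which may in part be technical. That spread was pooled over all 29 libraries, after terms for group and length of the first period. A fit of the 8 libraries alone, with the same terms, called 1047 genes, against 3476 in the main fit.

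The series as a whole asks how cytokines made by CD8+ T cells act on tumour cells over time, and it exposes the cells to IFNγ (100 ng/ml), TGFβ or medium in different orders. All cells were washed 5 times with PBS between the first and the second period, and all grew in IMDM with 10% FCS, so the medium controls also met whatever growth factors the serum holds. The labels name no other cells in the dish and do not say whether the line is a single clone. Poly(A) RNA libraries were stranded, and the values are read counts per gene.

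TGFβ binds a pair of serine/threonine kinase receptors, TGFBR2 and TGFBR1, aided by the coreceptors betaglycan (Tgfbr3) and endoglin (Eng). The active receptors phosphorylate SMAD2 and SMAD3, which enter the nucleus with SMAD4 and switch on target genes, among them their own inhibitors Smad7 and Pmepa1. In carcinoma and melanoma the pathway is known for matrix remodelling, changes of adhesion, cytostasis that tumour cells often lose, and lowered visibility to T cells.

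The 8 libraries held 17179530 to 21075151 reads in genes. The library of 6 h medium then medium stood apart from its group: its spread from the other medium libraries (SD of log2 CPM differences over genes) was 0.596, against 0.320 to 0.361 among the other 3, and its mitochondrial share was 1.24% against 0.841 to 0.868%. The TGFβ libraries fell into pairs, with SDs of 0.401 between 2 and 6 h, 0.417 between 12 and 24 h and 0.495 to 0.572 across the pairs, and mitochondrial shares of 0.717, 0.919, 1.21 and 1.04% in order of duration. Results are therefore given with and without the 6 h medium library. Of the melanocyte markers, Mitf was at 12.6 to 15.3 CPM (reads of a gene scaled to the size of the library) in medium and 8.40 to 12.7 in TGFβ, Pax3 at 61.5 to 66.0 and 49.0 to 74.1, while Pmel stayed at or below 0.444 and Sox10 at or below 0.112 CPM, near 0. Only 2 of the 8 melanocyte markers reached 1 CPM, and Tyr, Tyrp1, Dct and Mlana had no entry among the deposited genes. Of 16 leukocyte markers 2 passed 1 CPM, Cd14 (56.1 to 37.5 CPM, log2 fold change -0.63, adjusted p = 0.00774) and Cd68 (5.31 to 4.53 CPM, -0.26, adjusted p = 0.207), and the summed list ranged from 52.8 to 82.2 CPM in medium, the highest in the 6 h library, and from 26.3 to 58.9 CPM in TGFβ. Ptprc, which defines leukocytes, stayed at or below 0.0578 CPM. Cd14 lost its call in a fit without the term for length of the first period (adjusted p = 0.283). The summed fibroblast and endothelium markers ranged from 608 to 1970 CPM in medium, the highest in the 6 h library, and from 506 to 638 CPM in TGFβ. Of these 15 markers 7 reached 1 CPM in any of the 8 libraries. Col1a1, Pecam1, Vwf and Kdr stayed at or below 0.751, 0.279, 0.289 and 0 CPM. Pdgfra was at 6.72 to 11.0 CPM in medium and 7.82 to 9.08 in TGFβ, and Cdh5 at 6.99 to 12.3 and 16.6 to 23.2. The part of other cells in the sum was not tested.

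Of 14935 genes tested, 3476 (23.3%) were called at an adjusted p below 0.05 with edgeR's quasi-likelihood test, 1740 higher (11.7%) and 1736 lower (11.6%) in TGFβ. Most differences were small: 81.4% of the called genes differed by less than 2-fold, and 174 were at least 2-fold higher against 472 at least 2-fold lower. Of the called genes 3145 (90.5%) had the same sign at all 4 durations. For 2411 genes (16.1%) the 4 TGFβ values did not overlap the 4 medium values. Without the 6 h medium library 3135 of 14907 genes were called (21%), 1554 higher (10.4%) and 1581 lower (10.6%). Across 19 other settings and omissions, 227 genes stayed called higher and 202 lower in every one. The median log2 fold change of all genes tested was -0.0014. The counts of list members below are to be read against 11.7% of all genes called higher and 11.6% lower (10.4 and 10.6% without the 6 h medium library), and a list near those shares is not set apart. Without duration as a term 1726 genes were called, and 94 of the 233 genes followed across settings changed their side of the threshold. That model is not given for every gene below, so a call named without it may be among those lost.

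**Figure D1:**
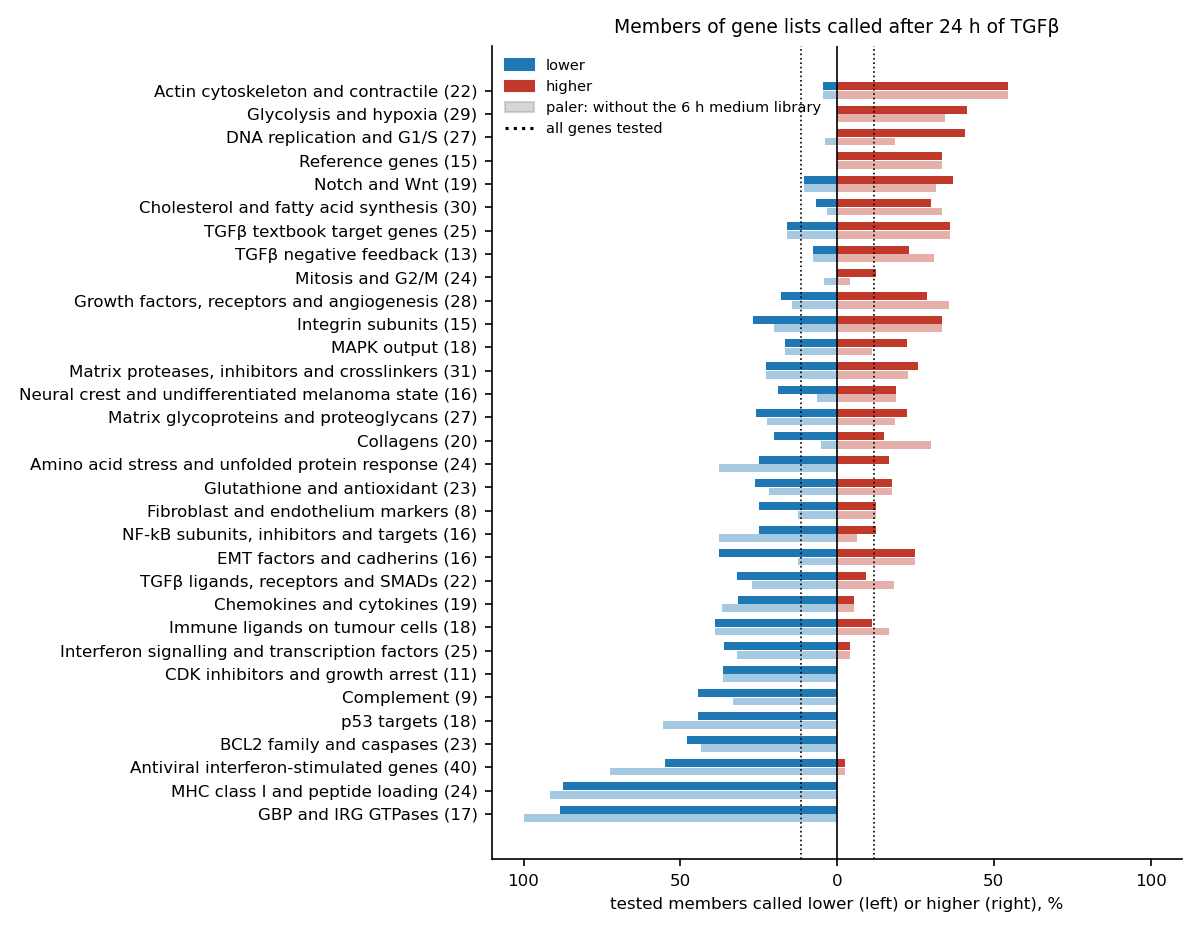
Percent of the tested members of each gene list called higher (right) or lower (left) in TGFβ than in medium, with paler bars for the fit without the 6 h medium library and dotted lines at the share of all genes. GBP and IRG GTPases (15 of 17 lower) and MHC class I and peptide loading genes (21 of 24 lower) reach farthest to the left, and actin cytoskeleton genes (12 of 22 higher) reach farthest to the right among lists of 20 or more.

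Transcripts of the TGFβ receptors fell and those of several inhibitors of receptor signalling rose. Levels below are CPM in libraries of 2, 6, 12 and 24 h first period, in that order. Tgfbr1 (ENSMUSG00000007613), the type I receptor kinase, read 105, 166, 108 and 104 in medium and 90.5, 93.9, 80.3 and 85.2 in TGFβ. Tgfbr3 (ENSMUSG00000029287), betaglycan, read 70.3, 149.9, 71.1 and 65.1 in medium and 42.4, 53.7, 33.9 and 26.8 in TGFβ. For both genes the groups did not overlap and the 6 h medium library was the highest of all 8. Tgfbr1 fell (log2 fold change -0.45 ± 0.09 SE with adjusted p = 9.20e-04), with a value of -0.31 without the 6 h medium library (adjusted p = 0.00350). Tgfbr3 fell as well (log2 fold change -1.16 ± 0.13 SE with adjusted p = 1.15e-06), with -0.99 without that library (adjusted p = 1.54e-06).

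Of 22 ligands, receptors and SMADs tested, 2 were called higher and 7 lower, with a median of -0.03, and without the 6 h medium library 4 were higher and 6 lower. Besides Tgfbr1 and Tgfbr3, the lower genes were Eng (log2 fold change -0.58, adjusted p = 5.21e-05), Tgfbr2 (-0.29, adjusted p = 0.00727), Bmp4 (-0.40, adjusted p = 0.0154), Tgfb3 (-0.36, adjusted p = 4.49e-04) and Ltbp3 (-0.29, adjusted p = 0.0423). Tgfbr2, the type II receptor that binds the ligand, moved from 64.3 to 51.9 CPM, and its difference shrank to -0.17 without the 6 h medium library (adjusted p = 0.0345). Ltbp3, which holds latent TGFβ in the matrix, lost its call there (-0.10, adjusted p = 0.313) and without the 2, 6 or 24 h TGFβ library (0.123, 0.113 and 0.0658). Bmp4, a BMP ligand, lost its call without the 24 h medium library or the 2 or 12 h TGFβ library (adjusted p = 0.0517, 0.0569 and 0.0666). The higher pair was Ltbp4 (0.61, adjusted p = 2.16e-04), another latent TGFβ binding protein, and Smad5 (0.27, adjusted p = 7.12e-04), which carries BMP signals. Smad3, the main transcriptional SMAD of the pathway, stood at 63.0 ± 4.19 CPM in medium and 64.8 ± 6.62 in TGFβ (SD, n = 4 each) and was not called (adjusted p = 0.729).

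Among 13 feedback genes 3 were called higher and 1 lower, and 4 and 1 without the 6 h medium library, against 11.7 and 11.6% of all genes. Smad7, the inhibitory SMAD that recruits ubiquitin ligases to the receptor, read 39.9, 37.4, 41.4 and 37.9 CPM in medium and 55.8, 47.2, 71.5 and 66.6 in TGFβ. Ldlrad4, a membrane protein that keeps SMAD2 and SMAD3 from the receptor, read 7.91, 9.19, 7.25 and 7.42 in medium and 13.3, 13.2, 18.9 and 17.9 in TGFβ. In both genes every TGFβ library lay above every medium library. The log2 fold changes were 0.61 for Smad7 (SE 0.11, adjusted p = 4.69e-04) and 0.98 for Ldlrad4 (SE 0.13, adjusted p = 9.70e-06). Pmepa1, which also sequesters SMADs, read 112, 173, 104 and 113 in medium and 207, 205, 202 and 228 in TGFβ, with the 6 h medium library high among its controls (log2 fold change 0.76 ± 0.11 SE with adjusted p = 3.44e-05; 0.93 without it). Smad6, the inhibitor that favours BMP receptors, was the gene called lower (-0.68, adjusted p = 0.00255), with groups that overlapped. Skil, a SMAD corepressor, was not called (0.064, adjusted p = 0.436).

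Of 25 genes that textbooks list as TGFβ targets, 9 were called higher and 4 lower with a median of 0.11, and the counts were the same without the 6 h medium library. A pair of the 9, Tfpi2 and Ctla2a, had been put on the list with their level in these libraries known, so their direction is no independent evidence. Sphk1 (0.98, adjusted p = 0.00230), Junb (0.28, adjusted p = 0.00479) and Il11 (0.50, adjusted p = 0.0207) rose, while Il11 was not called without the 2 or 6 h medium library (adjusted p = 0.0550 and 0.0936) or the 6 or 24 h TGFβ library (0.0639 and 0.0541). Without duration as a term Junb and Il11 were not called (adjusted p = 0.0687 and 0.142). Ccn2, a connective tissue growth factor often used as a TGFβ readout, rose in relative terms from 0.600 to 2.76 CPM (2.19, adjusted p = 1.69e-05) but stayed at a low level, and its adjusted p was 0.0599 without duration as a term.

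The 4 lower genes on that list were the inhibitor of differentiation genes Id1, Id2 and Id4, and Cdkn1a. Id1, a helix-loop-helix protein that blocks differentiation factors and is a BMP target, read 15.5, 23.9, 13.6 and 11.8 CPM in medium and 8.98, 8.32, 7.12 and 6.02 in TGFβ. All 4 TGFβ libraries lay below the medium libraries (log2 fold change -1.08 ± 0.14 SE with adjusted p = 1.03e-05). Id2 (-1.56, adjusted p = 0.00369) and Id4 (-0.32, adjusted p = 0.0382) fell too, and the log2 fold change of Id2 was -0.63 without the 6 h medium library. The call of Id4 was lost without the 12 or 24 h medium library (adjusted p = 0.127 and 0.130) or the 6, 12 or 24 h TGFβ library (0.0825, 0.154 and 0.0761). Cdkn1a, the p21 inhibitor of cyclin-dependent kinases that TGFβ raises in many epithelial cells, read 102, 117, 106 and 115 in medium and 86.2, 74.0, 82.8 and 70.1 in TGFβ. It was lower in TGFβ without overlap of the groups (log2 fold change -0.50 ± 0.10 SE with adjusted p = 7.55e-04). Myc, which TGFβ lowers in cells that it arrests, read 207, 84.8, 175 and 207 in medium and 307, 196, 317 and 347 in TGFβ and was called higher (log2 fold change 0.82 ± 0.12 SE with adjusted p = 5.07e-05), although the groups overlapped.

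**Figure D2:**
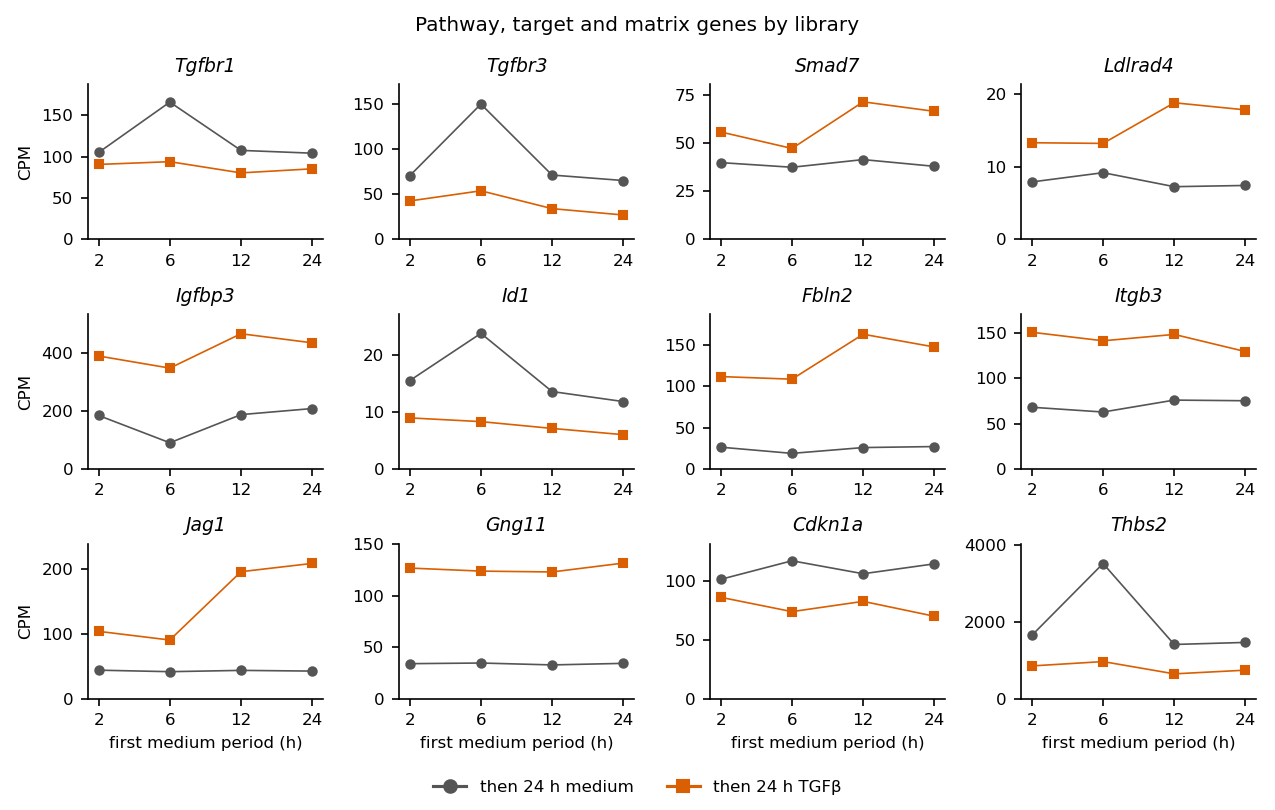
CPM (vertical) by length of the first medium period in hours (horizontal) for 12 genes of the pathway and its outputs, with 1 point per library, circles for 24 h of medium and squares for 24 h of TGFβ. Smad7, Ldlrad4, Igfbp3, Fbln2, Itgb3, Jag1 and Gng11 lie higher in all TGFβ libraries than in any medium library, and Tgfbr1, Tgfbr3, Id1, Cdkn1a and Thbs2 lie lower.

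Among genes called with and without the 6 h medium library, 14 of the 15 with the highest rise were Tfpi2, Ctla2a, Mmp12, Fbln2, Ggct, Fam13c, Itga2, Ccbe1, Gng11, Whrn, Gdpd5, Dclk1, Pkp1 and Ubash3b. The order of this rule is the order of the measured change, so no test is drawn from the list itself. All 15 showed no overlap between the groups and were also called with all 19 other settings and omissions. Of all genes 16.1% showed no overlap, and 227 were called higher in every setting. Both traits follow in large part from how the 15 were picked, so they are no further support. Their log2 fold changes ran from 1.77 (Ubash3b, a tyrosine phosphatase) to 3.61 (Tfpi2, a Kunitz-type inhibitor of serine proteases laid down in matrix).

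Promoter stretches of 3 of these genes are shown because each holds a match to TGANTCA within the 250 bases before the gene's start. This is a loose form of the element of AP-1 (Fos and Jun dimers), since N was allowed to be any base. All counts of it include matches such as TGATTCA in Dclk1. Sequences are from RefSeq on GRCm38.p6, written 5′ to 3′ in the direction of the gene, with the match in capitals.
Mmp12 (chr9:7347305-7347361, plus strand): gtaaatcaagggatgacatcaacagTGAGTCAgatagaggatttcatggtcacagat
Ctla2a (chr13:60936723-60936779, minus strand): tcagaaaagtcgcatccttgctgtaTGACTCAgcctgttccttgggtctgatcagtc
Dclk1 (chr3:55461644-55461727, plus strand): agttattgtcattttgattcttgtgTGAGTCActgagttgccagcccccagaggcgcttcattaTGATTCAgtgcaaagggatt
Both strands were searched, and matches that overlap another motif were kept. TGANTCA was found in 4 of the 10 genes of the 15 that had an entry, in 12.5% of genes called higher at least 2-fold (14 of 112), in 9.15% of genes called lower at least 2-fold (30 of 328), in 5.69% of the 10069 tested genes with an entry and in 7.82% of all 27025 promoters. It was also found in 8 of 28 antiviral genes (28.6%), a list with 22 members called lower. CAGACA, a SMAD-binding element, was found in 25% of genes called higher at least 2-fold (28 of 112), in 18.6% of genes called lower at least 2-fold (61 of 328), in 15.8% of all tested and in 19.3% of all 27025 promoters. A match is a description of the letters in that window and was not tested as a binding site.

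Tfpi2 (chromosome 6, 3962595 to 3988919 in GRCm38) read 0.320, 0.116, 0.740 and 1.05 CPM in medium and 6.69, 6.14, 8.15 and 6.41 in TGFβ (log2 fold change 3.61 ± 0.31 SE with adjusted p = 3.24e-08). Ctla2a (chromosome 13, 60934155 to 60936625), a cathepsin inhibitor whose near-identical neighbour Ctla2b makes its read count uncertain, read 0.640, 0.289, 0.740 and 0.443 in medium and 5.93, 6.14, 7.68 and 4.71 in TGFβ (log2 fold change 3.50 ± 0.28 SE with adjusted p = 8.90e-09). Mmp12, the macrophage elastase that cleaves elastin, read 1.51, 4.80, 1.28 and 1.27 in medium and 20.4, 19.8, 19.9 and 23.2 in TGFβ (log2 fold change 3.28 ± 0.32 SE with adjusted p = 2.34e-07). These 3 were low in every medium library and several-fold higher in every TGFβ library, and for Mmp12 the 6 h medium library was the highest control.

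Fbln2 (fibulin 2, which links fibronectin and basement membrane proteins) read 26.2, 18.7, 25.7 and 27.0 CPM in medium and 112, 108, 163 and 147 in TGFβ (log2 fold change 2.42 ± 0.19 SE with adjusted p = 8.90e-09). Itga2, the α2 chain of a collagen receptor, read 26.1, 4.97, 29.4 and 33.4 in medium and 79.0, 68.7, 142 and 98.8 in TGFβ (log2 fold change 2.07 ± 0.29 SE with adjusted p = 2.04e-05). Ccbe1, a secreted factor that helps to process VEGF-C for lymphatic growth, read 30.5, 12.0, 30.3 and 33.2 in medium and 94.9, 86.8, 114 and 111 in TGFβ (log2 fold change 1.95 ± 0.19 SE with adjusted p = 1.59e-07). All 3 were lowest in the 6 h medium library, and without it their log2 fold changes were 2.36, 1.76 and 1.71, all still called. Gng11, a G protein γ subunit, read 33.9, 34.5, 32.7 and 34.2 in medium and 127, 124, 123 and 132 in TGFβ, with tight groups (log2 fold change 1.90 ± 0.18 SE with adjusted p = 1.08e-07).

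The others of the 15 covered varied roles. Whrn, a scaffold of sensory hair bundles, moved from 12.6 to 47.3 CPM on average (log2 fold change 1.89). Dclk1, a doublecortin-like kinase, moved from 14.2 to 49.0 CPM (1.77), and Pkp1, a plakophilin of desmosomes, from 2.24 to 8.37 CPM (1.77). Ggct, an enzyme of glutathione turnover, had a log2 fold change of 2.34. Fam13c reached 5.05 ± 0.902 CPM and Gdpd5 11.8 ± 2.24 CPM in TGFβ (SD, n = 4 each).

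**Figure D3:**
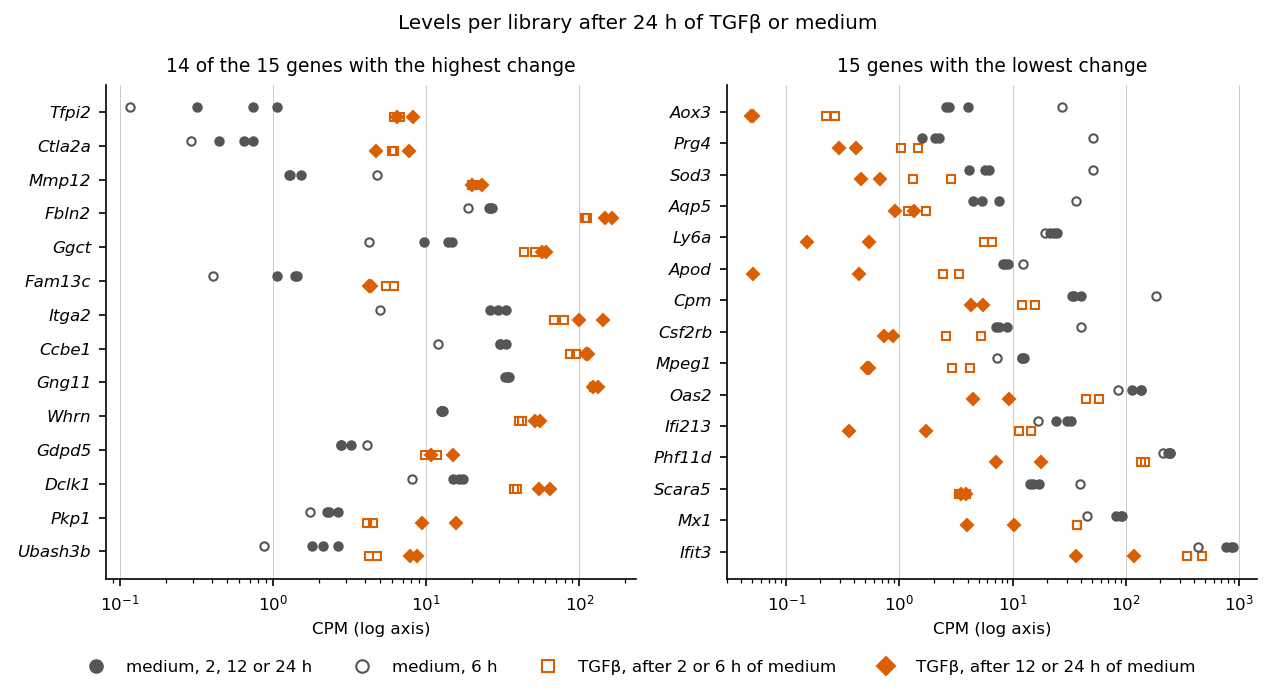
CPM on a log axis of 14 of the 15 genes with the largest rise (left) and the 15 with the largest fall (right), with 1 point per library: circles for medium, open for 6 h, and squares or diamonds for TGFβ after 2 or 6 h and 12 or 24 h of medium. Every one of the 14 raised genes is higher in all TGFβ libraries than in any medium library, and several of the lowered genes, such as Ifi213, Phf11d and Mx1, are lowest in the 12 and 24 h TGFβ libraries.

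The 15 genes with the largest fall were Aox3, Prg4, Sod3, Aqp5, Ly6a, Apod, Cpm, Csf2rb, Mpeg1, Ifi213, Phf11d, Scara5, Mx1, Oas2 and Ifit3 (Ifit3 with overlap between the groups, the other 14 without). Here too the separation follows in large part from how the genes were picked. Aox3 (aldehyde oxidase), Scara5 (a scavenger receptor that takes up ferritin) and Cpm (the membrane carboxypeptidase M) are metabolic or surface proteins. Aox3 read 4.07, 27.2, 2.56 and 2.77 CPM in medium and 0.272, 0.223, 0.0512 and 0.0486 in TGFβ (log2 fold change -5.57 ± 0.69 SE with adjusted p = 5.39e-06). Cpm read 40.3, 185, 33.2 and 35.0 in medium and 12.1, 15.6, 5.43 and 4.32 in TGFβ (log2 fold change -2.84 ± 0.39 SE with adjusted p = 1.85e-05). Scara5 read 17.2, 39.2, 14.4 and 15.2 in medium and 3.37, 3.91, 3.84 and 3.50 in TGFβ (log2 fold change -2.50 ± 0.25 SE with adjusted p = 4.39e-07). In all 3 the groups did not overlap and the 6 h medium library was far above the other controls. Without it the log2 fold changes were -4.42 for Aox3, -2.16 for Cpm and -2.10 for Scara5, all still called (adjusted p = 9.75e-07, 3.53e-05 and 7.47e-08).

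Sod3, the extracellular superoxide dismutase, moved from 16.9 to 1.32 CPM on average (-3.35, or -2.30 without the 6 h medium library), and Prg4, lubricin, by -3.42 or -1.60 without that library. Csf2rb, the shared β chain of the GM-CSF receptor, moved from 16.1 to 2.37 CPM (-2.70, adjusted p = 4.00e-05), and Mpeg1, the pore-forming perforin-2 of phagocytes, from 11.0 to 2.06 CPM (-2.68, adjusted p = 0.00177). Both genes are known from myeloid cells, and of the leukocyte markers Cd14 was also called lower (-0.63, adjusted p = 0.00774), while Ptprc was at or below 0.0578 CPM in all 8 libraries. The part of other cells in these values was not tested. In the model without the duration term Cd14 was not called (adjusted p = 0.283). Ifi213, Phf11d, Mx1, Oas2, Ifit3 and Ly6a are genes that interferon raises. Of these, Ifit3 lost its call without the 12 or 24 h medium library (adjusted p = 0.0646 and 0.0922) or the 12 or 24 h TGFβ library (0.0802 and 0.0534). Phf11d lost its call without the 24 h medium or the 12 or 24 h TGFβ library (adjusted p = 0.0519, 0.0560 and 0.0561). Without the duration term Ifi213, Phf11d and Mx1 were not called (adjusted p = 0.168, 0.270 and 0.108).

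Matrix genes changed in both directions. Of 20 collagens 3 were called higher and 4 lower (6 and 1 without the 6 h medium library), of 27 matrix glycoproteins and proteoglycans 6 and 7 (5 and 6), and of 31 proteases, inhibitors and crosslinkers 8 and 7 (7 and 7), against 11.7 and 11.6% of all genes. The collagens called lower numbered 7 without the 24 h medium library and 2 without the 2 or the 6 h TGFβ library. The lists' medians were -0.20, -0.20 and -0.16. Thbs2, thrombospondin 2, a matrix protein that binds proteases and slows vessel growth, read 1649.8, 3520.1, 1410.4 and 1464 CPM in medium and 851, 964, 644 and 741 in TGFβ. Its groups did not overlap (log2 fold change -1.27 ± 0.18 SE with adjusted p = 2.39e-05; -1.01 and adjusted p = 5.17e-05 without the 6 h medium library).

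Among collagens, Col7a1, the anchoring fibril collagen that TGFβ is known to raise, rose from 137 to 288 CPM (1.06, adjusted p = 4.09e-05), and Col5a3 from 3.39 to 7.53 CPM (1.12, adjusted p = 6.23e-05). Col4a5, a basement membrane chain, fell from 22.2 to 12.6 CPM (-0.82, adjusted p = 4.74e-04). Col3a1, the fibrillar collagen of soft tissue, read 544, 1461, 483 and 481 CPM in medium and 376, 448, 405 and 424 in TGFβ. Its call (log2 fold change -0.79 ± 0.25 SE with adjusted p = 0.0218) rested on the 6 h medium library, without which the difference was -0.28 (adjusted p = 0.236), and it was also lost without the 2 h or the 6 h TGFβ library (adjusted p = 0.0504 and 0.0603). Col12a1 went the other way, from 0.31 (adjusted p = 0.539) with all libraries to 1.11 (adjusted p = 1.11e-04) without the 6 h medium library, and it was named after its values were seen.

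Among glycoproteins, Has2, which makes hyaluronan, rose from 276 to 506 CPM (0.87, adjusted p = 3.85e-07), and Smoc2, a calcium-binding matrix protein, from 28.9 to 99.0 CPM (1.72, adjusted p = 3.64e-05). Fn1, fibronectin, was abundant in both groups at 5962, 10285, 6269.8 and 5901 CPM in medium and 9539.9, 10532, 14794 and 11825 in TGFβ. The 6 h medium library was the highest control and overlapped the TGFβ libraries, and the test gave log2 fold change 0.68 ± 0.18 SE with adjusted p = 0.00924 (0.99 and adjusted p = 5.97e-05 without that library). Tnc, tenascin C, moved from 1221 to 1923 CPM (0.71, adjusted p = 0.0273), a call that was absent when the 6 h medium library was left out (adjusted p = 0.0521) or without the 6, 12 or 24 h TGFβ library (adjusted p = 0.0572, 0.0678 and 0.0654).

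Among proteases and inhibitors, Plaur, the urokinase receptor, moved from 24.8 to 43.5 CPM (0.81, adjusted p = 0.00170), Plau, urokinase, from 581 to 943 CPM (0.72, adjusted p = 0.00275), and Timp1, an inhibitor of matrix metalloproteinases, from 116 to 212 CPM (0.77, adjusted p = 0.0110). The aggrecanases Adamts1 (-0.71, adjusted p = 1.56e-04) and Adamts4 (-0.78, adjusted p = 0.00273), the metalloproteinase Mmp19 (-0.79, adjusted p = 2.78e-05) and the serine protease Htra1 (-0.87, adjusted p = 0.00134) fell, with a log2 fold change of -0.53 for Htra1 without the 6 h medium library. In the model without the duration term Adamts4 and Mmp19 were not called (adjusted p = 0.106 and 0.0706). Adam12, a TGFβ-linked metalloproteinase, was near absent in medium at 0, 0.116, 0.0493 and 0.0554 CPM and read 0.979, 0.558, 1.43 and 1.36 in TGFβ, a level below that set for naming genes and given after its values were seen.

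Of 15 integrin subunits 5 were called higher and 4 lower (5 and 3 without the 6 h medium library), and the 4 became 2 without the 6 or 24 h and 1 without the 12 h TGFβ library. The raised ones were Itga2, Itgb3, Itga5, Itgb1 and Itgav, all subunits of collagen, fibronectin or vitronectin receptors. Itgb3, the β3 chain, read 68.0, 62.7, 75.9 and 75.2 CPM in medium and 151, 141, 148 and 129 in TGFβ (log2 fold change 1.02 ± 0.068 SE with adjusted p = 8.92e-10). Itgb1, the most widely paired β chain, read 1183, 1183, 1175 and 1240.0 in medium and 1798, 1616, 2165 and 2340.0 in TGFβ (log2 fold change 0.72 ± 0.077 SE with adjusted p = 1.11e-06). In both genes all TGFβ libraries lay above the medium libraries. Itga5, the fibronectin receptor chain, rose from 97.9 to 154 CPM (0.66, adjusted p = 2.56e-05). Itga4 (-1.41, adjusted p = 0.00189) and Itgb7 (-1.08, adjusted p = 0.0211), which pair in lymphocytes to bind MAdCAM-1, fell, while Itga1 (-0.86) and Itgb5 (-0.41) were called lower with but not without the 6 h medium library (adjusted p = 0.415 and 0.195 without it). Itga1 was also not called without the 2, 6 or 12 h TGFβ library (adjusted p = 0.0690, 0.123 and 0.0526), nor Itgb5 without the 6, 12 or 24 h one (0.0847, 0.0591 and 0.0621). Itgb7 lost its call without the 12 or 24 h medium library or the 12 or 24 h TGFβ library (adjusted p = 0.0501, 0.0540, 0.0856 and 0.0901).

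Of 22 genes of the actin cytoskeleton 12 were called higher and 1 lower, against 11.7 and 11.6% of all genes, and the counts without the 6 h medium library were the same. Tnnt2, cardiac troponin T, read 148, 164, 149 and 146 CPM in medium and 438, 502, 444 and 397 in TGFβ. The groups were far apart at every duration (log2 fold change 1.55 ± 0.10 SE with adjusted p = 3.46e-10). Tagln2 (0.64, adjusted p = 6.56e-05), Myh9, non-muscle myosin heavy chain (0.48, adjusted p = 4.54e-04), Flna, filamin A (0.44, adjusted p = 2.07e-04), Actb (0.43, adjusted p = 3.09e-05) and Actg1 (0.40, adjusted p = 0.00559) rose by smaller amounts. Zyx, zyxin of focal adhesions (0.30, adjusted p = 3.22e-04), and Ankrd1, a YAP target (1.02, adjusted p = 0.00104), rose with overlapping groups. Without the duration term Actg1, Zyx and Ankrd1 were not called (adjusted p = 0.151, 0.115 and 0.151). Tpm2, a muscle tropomyosin, fell (-0.87, adjusted p = 0.0143), a call lost without the 24 h medium library or the 2 or 12 h TGFβ library (adjusted p = 0.0546, 0.0546 and 0.0643). The smooth muscle genes Acta2, Tagln and Cnn1 were below the count filter, at no more than 0.154, 0.0987 and 0 CPM in these 8 libraries.

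Transcription factors and cadherins of the epithelial to mesenchymal transition split. Of 16, 4 were called higher and 6 lower (4 and 2 without the 6 h medium or the 6 h TGFβ library). Zeb1 rose from 74.4 to 95.8 CPM (0.36, adjusted p = 2.81e-06), Snai1 from 21.9 to 29.4 CPM with overlapping groups (0.42, adjusted p = 0.00175), Cdh2, N-cadherin, from 96.0 to 121 CPM (0.32, adjusted p = 0.00267) and Cdh5, VE-cadherin, from 10.6 to 21.0 CPM (0.96, adjusted p = 3.74e-04). Prrx1 fell from 1331 to 857 CPM (-0.63, adjusted p = 1.80e-04) and Twist2 from 65.3 to 49.8 CPM (-0.39, adjusted p = 0.0140). Without the duration term Cdh2 and Twist2 were not called (adjusted p = 0.0633 and 0.0644). The calls of Snai2, Twist1, Cdh11 and Cdh1 were not kept on omission of the 6 h medium library (adjusted p = 0.189, 0.211, 0.157 and 0.0635), and Cdh1, E-cadherin, was below 1 CPM on average in both groups. Further omissions that ended a call were the 2, 6 or 24 h TGFβ library for Snai2 (adjusted p = 0.0549, 0.0734 and 0.0869), the 6, 12 or 24 h TGFβ library for Twist1 (0.0647, 0.0944 and 0.0696) and the 6 h TGFβ library for Cdh11 (0.0670). For Cdh1 they were the 24 h medium library (0.0601) and the 2 or 6 h TGFβ library (0.0754 and 0.0872). Zeb2 was at 135 ± 13.2 CPM in medium and 133 ± 8.66 in TGFβ (SD, n = 4 each) and was not called (adjusted p = 0.908).

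Genes that interferon raises were lower in TGFβ, in cells that had received no interferon from outside. Of 40 antiviral genes 22 were called lower and 1 higher (median -1.40), of 17 GBP and IRG GTPases 15 and 0 (median -1.81), and of 24 MHC class I and peptide loading genes 21 and 0 (median -1.23), against 11.6% of all genes called lower. Without the 6 h medium library the lower counts were 29, 17 and 22, against 10.6% of all genes. The counts depend on single libraries: leaving out 1 of the 8 at a time gave 5 to 29, 8 to 17 and 13 to 22 lower calls, lowest for the first and second list without the 12 h TGFβ library and for the third without the 24 h TGFβ library. In a model without the duration term 1 of 40, 5 of 17 and 4 of 24 members were called lower, against 880 of all 14935 genes. The share of the antiviral list did not exceed that of all genes there. In that model the adjusted p was 0.111 for Oas2, 0.226 for Ifit3, 0.205 for Gbp2, 0.128 for B2m and 0.204 for H2-T23. The log2 fold changes of these genes were smaller in that model, at -2.02, -1.59, -1.39, -0.80 and -1.43 in the same order. In bulk RNA, fewer expressing cells and less RNA per cell cannot be told apart. The antiviral gene called higher was Ifi27 (0.87, adjusted p = 0.00559), named after its value was seen. Its adjusted p was 0.0557 without the duration term.

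Promoters of 6 of these genes are shown because they hold the interferon-stimulated response element, searched as GAAA, any 2 bases and GAAA on both strands (so that TTTC, 2 bases and TTTC is the other strand). The stretches lie within 250 bases before the gene's start and come from RefSeq on GRCm38.p6, written in the gene's direction with the matches in capitals.
Ifit3 (chr19:34583348-34583441, plus strand): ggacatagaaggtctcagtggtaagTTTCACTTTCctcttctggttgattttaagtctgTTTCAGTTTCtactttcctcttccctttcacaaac
Gbp2 (chr3:142620579-142620638, plus strand): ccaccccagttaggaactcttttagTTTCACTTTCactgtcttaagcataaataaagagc
Tgtp1 (chr11:48992289-48992348, minus strand): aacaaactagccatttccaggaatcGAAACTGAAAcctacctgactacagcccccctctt
Ifi213 (chr1:173599311-173599370, minus strand): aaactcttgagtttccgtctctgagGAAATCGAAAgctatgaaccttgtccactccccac
B2m (chr2:122147523-122147582, plus strand): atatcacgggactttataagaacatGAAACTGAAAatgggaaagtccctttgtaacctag
H2-T23 (chr17:36032791-36032850, minus strand): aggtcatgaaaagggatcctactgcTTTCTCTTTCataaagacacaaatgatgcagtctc
A match was present in 10 of 28 antiviral genes with an entry (35.7%), 9 of 10 GTPases (90%) and 3 of 20 MHC class I genes (15%), against 3.22% of the 10069 tested genes with an entry and 3.46% of all 27025 promoters. It was present in 1.79% of genes called higher at least 2-fold (2 of 112) and in 12.8% of genes called lower at least 2-fold (42 of 328). These shares describe letters in a window and test no factor.

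Oas2, which makes the second messenger of RNase L, read 112, 85.9, 135 and 136 CPM in medium and 57.8, 44.9, 4.51 and 9.37 in TGFβ. The groups did not overlap, and the 12 and 24 h TGFβ libraries were far below the 2 and 6 h ones (log2 fold change -2.67 ± 0.64 SE with adjusted p = 0.00397). Ifit3, whose family binds viral RNA and shares sequence between members, read 768, 439, 859 and 882 in medium and 472, 350.4, 36.5 and 118 in TGFβ, where the 2 h TGFβ library exceeded the 6 h medium library. Its call (log2 fold change -2.29 ± 0.71 SE with adjusted p = 0.0212) was lost on omission of the 12 or 24 h medium or the 12 or 24 h TGFβ library.

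Gbp2, a guanylate-binding protein that attacks vacuoles of pathogens, read 212, 97.9, 221 and 233 CPM in medium and 130.2, 104, 14.9 and 41.8 in TGFβ, with overlap only between the 6 h medium library and the 2 and 6 h TGFβ libraries. Its call (log2 fold change -1.81 ± 0.63 SE with adjusted p = 0.0397) was lost on leaving out the 12 or 24 h medium library or the 6, 12 or 24 h TGFβ library (adjusted p = 0.107, 0.139, 0.0550, 0.137 and 0.0934). H2-K1, a classical MHC class I heavy chain, read 669.8, 637, 631 and 667 in medium and 494, 526, 135 and 159 in TGFβ (log2 fold change -1.23 ± 0.32 SE with adjusted p = 0.00655). Its adjusted p was 0.139 without duration as a term and 0.0952 in a fit of the 8 libraries alone. B2m, the light chain that every class I molecule needs, read 1495, 1824, 1383 and 1517 in medium and 1298, 1299, 429.9 and 535 in TGFβ (log2 fold change -0.93 ± 0.26 SE with adjusted p = 0.0117), a call lost without the 12 or 24 h TGFβ library (adjusted p = 0.0601 and 0.0524). For both chains every TGFβ library lay below every medium library, by little at 2 and 6 h and by a wide margin at 12 and 24 h. Nlrc5, the transactivator of class I genes, fell from 59.8 to 31.8 CPM (-0.97, adjusted p = 0.00733), and Tap1, a peptide transporter chain, from 128 to 58.6 CPM (-1.38, adjusted p = 0.0394). Tap1 was not called without the 12 or 24 h medium library (adjusted p = 0.104 and 0.121) or the 12 or 24 h TGFβ library (0.144 and 0.111).

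Tgtp1, an immunity-related GTPase whose near-identical neighbour Tgtp2 makes its count uncertain, read 8.36, 5.55, 7.60 and 6.98 CPM in medium and 3.43, 2.85, 0.256 and 0.486 in TGFβ. It fell without overlap of the groups (log2 fold change -2.12 ± 0.47 SE with adjusted p = 0.00220). H2-T23, which encodes the nonclassical class I chain Qa-1, read 122, 135, 119 and 125 in medium and 81.7, 81.8, 7.68 and 15.2 in TGFβ. The 12 and 24 h TGFβ libraries were the lowest of the 8, and the test gave log2 fold change -1.87 ± 0.59 SE with adjusted p = 0.0244. That call was lost without the 12 or 24 h medium library (adjusted p = 0.0576 and 0.0742) or the 12 or 24 h TGFβ library (0.0905 and 0.0872).

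Of 25 interferon signalling genes 9 were called lower and 1 higher (8 and 1 without the 6 h medium library), against 11.6 and 11.7% of all genes. The 9 became 3 without the 24 h medium library and 4 without the 12 h TGFβ library. Stat2, part of the factor that binds the response element, fell from 296 to 136 CPM (-1.43, adjusted p = 0.0204), a call lost without the 12 or 24 h medium library (adjusted p = 0.0668 and 0.0784) or the 12 or 24 h TGFβ library (0.0853 and 0.0615), while Irf8 rose from 23.6 to 32.8 CPM (0.48, adjusted p = 0.00449). Without the duration term neither Stat2 nor Irf8 was called (adjusted p = 0.182 and 0.179). Irf7, which amplifies interferon production, read 689, 628, 653 and 679 CPM in medium and 500.2, 497, 35.5 and 111 in TGFβ. The 12 and 24 h TGFβ libraries were far below all others, and its log2 fold change was -1.87 (adjusted p = 0.0556). It was called without the 2 or the 6 h medium library (adjusted p = 0.0383 and 0.0356). Ifnb1, interferon β itself, was looked at after these values were seen: 69 reads lay in the 4 medium libraries and 13 in the 4 TGFβ libraries, or 0.640, 0.924, 1.33 and 0.664 CPM against 0.326, 0.112, 0.102 and 0.146 CPM. The groups did not overlap, and the test gave log2 fold change -2.40 ± 0.65 SE with adjusted p = 0.00970. The 4 interferon α genes in the table held 31 reads in medium and 10 in TGFβ, too few to test singly.

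The difference between TGFβ and medium was also compared between lengths of the first medium period. A slope of the effect on log2 hours called 0 genes with edgeR (612 at an unadjusted p below 0.05), while a comparison of the effect at 12 and 24 h with that at 2 and 6 h called 294 (1.97%), 78 higher (0.522%) and 216 lower (1.45%). That split was drawn after the TGFβ libraries were seen to fall into those pairs, so its calls describe these libraries and are no independent test of duration. Without the 6 h medium library it called 173, 30 higher and 143 lower. The split called 118, 159, 108 and 225 genes without the 2, 6, 12 or 24 h TGFβ library, and 24 when fitted on the 8 libraries alone. Of the 216 lower genes 66 were on the antiviral, GTPase or MHC class I lists: 37 of 40, 12 of 17 and 17 of 24 members, or 17, 11 and 17 without the 6 h medium library. Of those of the 216 that are on none of these lists, 113 had a promoter entry, and 32 of these (28.3%) held the response element.

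Mean log2 differences between TGFβ and medium at 2 and 6 h and at 12 and 24 h were -0.95 and -4.36 for Oas2 (adjusted p of the difference 3.35e-04), -0.65 and -3.48 for H2-T23 (1.91e-04), and -0.23 and -1.70 for Nlrc5 (1.91e-04). Outside these 3 lists, and chosen after their values were seen, Gsdmd, the pore former of pyroptosis, gave -0.61 and -2.34 (0.00102), and Ddit3, the CHOP factor of cell stress, -0.018 and -1.58 (0.00250). In the other direction, Smoc2 gave 1.13 and 2.56 (0.00474), Thbs1, a protein that activates latent TGFβ, -0.36 and 1.52 (0.0296), and Jag1, a Notch ligand, 1.18 and 2.23 (0.0339). Of the Notch and Wnt genes, 1 was called higher by the split with all libraries and 0 without the 6 h medium library. For the textbook targets these counts were 1 and 0, and for the matrix glycoproteins and proteoglycans 1 and 1. The pathway gene Smad7 (0.41 and 0.80) was not called in the comparison with all libraries (adjusted p = 0.378).

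Levels by duration were also read in another set of libraries, in which TGFβ came first and was washed out before 24 h of medium. Oas2 there read 55.4, 38.7, 0.917 and 0.689 CPM after 2, 6, 12 and 24 h of TGFβ, and the mean log2 CPM of the 40 antiviral genes was 7.27, 6.92, 3.76 and 3.01. In the 4 TGFβ libraries of the main comparison that mean was 7.35, 7.12, 4.87 and 5.99, and in medium 7.79, 7.34, 7.86 and 7.89. When IFNγ came first, Oas2 read 114, 86.1, 52.1 and 55.1 CPM with medium second and 62.3, 56.6, 23.7 and 26.4 CPM with TGFβ second. The mitochondrial share was also higher in the 12 and 24 h TGFβ libraries, at 1.21 and 1.04%, than in the 2 and 6 h ones, at 0.717 and 0.919%, and its part in the difference was not tested. Length of the medium period and the day or plate of culture cannot be told apart.

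**Figure D4:**
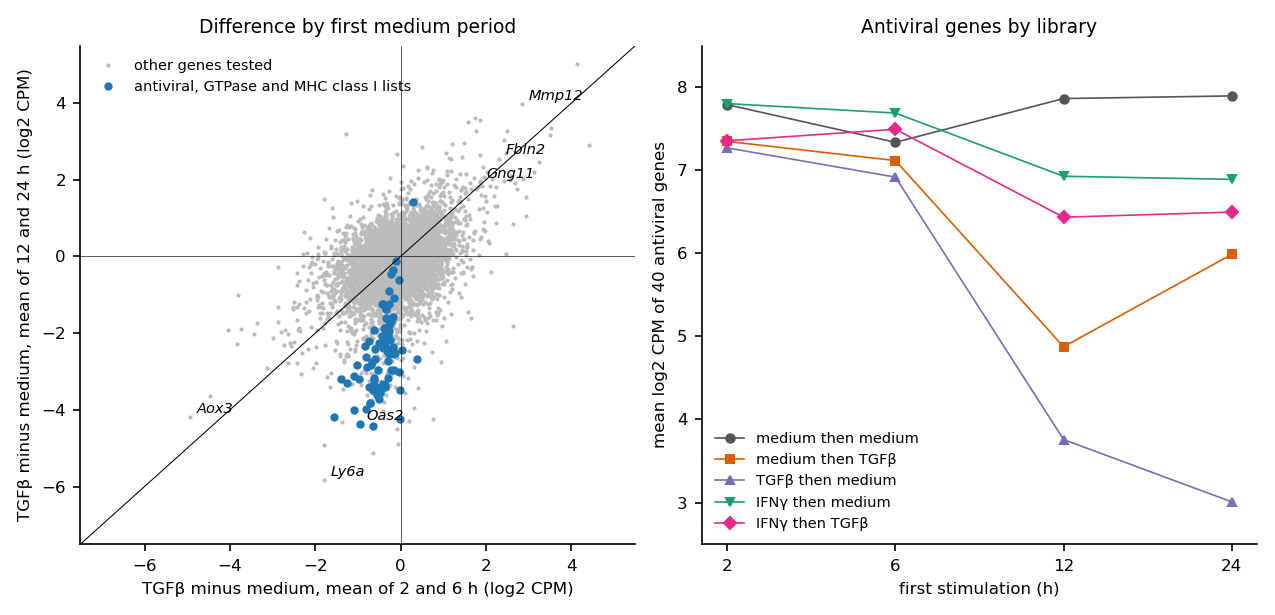
Left, mean log2 difference between TGFβ and medium at 2 and 6 h (horizontal) against 12 and 24 h (vertical) for the genes tested, with antiviral, GTPase and MHC class I genes in blue, most of them below the diagonal. Right, mean log2 CPM of the 40 antiviral genes in each library of 5 sequences by length of the first period, where the TGFβ libraries sit at 7.35 and 7.12 for 2 and 6 h and at 4.87 and 5.99 for 12 and 24 h.

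Ligands and signals that T cells read were lower in part. Of 18 immune ligands 7 were called lower and 2 higher (7 and 3 without the 6 h medium library), against 11.6 and 11.7% of all genes. The 7 became 4 without the 12 or 24 h medium or the 12 h TGFβ library, and the 2 became 1 without the 12 h medium or the 6, 12 or 24 h TGFβ library. Cd274, which encodes PD-L1, read 21.1, 10.8, 24.5 and 24.5 CPM in medium and 12.3, 9.55, 2.31 and 6.26 in TGFβ, with overlapping groups. Its call (log2 fold change -1.62 ± 0.45 SE with adjusted p = 0.0112) was lost on leaving out the 12 or 24 h medium library (adjusted p = 0.05005 and 0.0517) or the duration term (0.0983). Nt5e, the CD73 enzyme that makes adenosine, read 88.9, 69.7, 90.2 and 87.6 in medium and 221, 217, 184 and 169.6 in TGFβ. It rose without overlap at all durations (log2 fold change 1.22 ± 0.094 SE with adjusted p = 6.86e-09). Lgals3, galectin 3, fell from 35.7 to 14.9 CPM (-1.28, adjusted p = 3.02e-04), Lgals9, galectin 9, from 92.5 to 32.7 CPM (-2.02, adjusted p = 0.0122) and Cd47, the signal that restrains phagocytes, from 66.4 to 46.4 CPM (-0.54, adjusted p = 0.0147). Lgals9 lost its call without the 12 h TGFβ library (adjusted p = 0.0521), and Cd47 without the 12 or 24 h medium or the 12 h TGFβ library (0.0522, 0.0793 and 0.0563). Without the duration term the log2 fold changes were -1.50 for Lgals9 (adjusted p = 0.197) and -0.52 for Cd47 (adjusted p = 0.0784).

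Of 19 chemokines and cytokines 6 were called lower and 1 higher (7 and 1 without the 6 h medium library), with a median of -0.83 and against 11.6 and 11.7% of all genes. The 6 became 2 without the 12 h medium library and 3 without the 24 h medium or the 12 h TGFβ library. The higher one was Cxcl12 (1.85, adjusted p = 0.00956), a ligand of CXCR4, named after its value was seen. Its adjusted p was 0.115 without the duration term. Cxcl10, which attracts T cells through CXCR3, read 155, 37.1, 186 and 198 CPM in medium and 112, 65.9, 12.6 and 35.3 in TGFβ. The groups overlapped, and the call (log2 fold change -1.98 ± 0.68 SE with adjusted p = 0.0368) was lost without the 12 or 24 h medium library (adjusted p = 0.131 and 0.179) or without any of the 4 TGFβ libraries (0.0545, 0.0697, 0.123 and 0.0654 in order of duration). Il33, an alarmin, read 418, 253, 465 and 522 in medium and 215, 235, 134 and 106 in TGFβ, lower in every library (log2 fold change -1.50 ± 0.36 SE with adjusted p = 0.00364; adjusted p = 0.0791 without the duration term). Ccl2, which attracts monocytes, fell from 9.67 to 3.81 CPM (-1.40, adjusted p = 0.0163), a call lost without the 12 or 24 h medium library (adjusted p = 0.0558 and 0.0618). Of 16 NF-kB genes 4 were called lower and 2 higher (6 and 1 without the 6 h medium library), against 11.6 and 11.7% of all genes, with Nfkbiz (-0.76, adjusted p = 3.69e-04) and Bcl3 (-0.95, adjusted p = 0.00340), both nuclear IκB proteins, the lowest. The 2 higher calls became 0 without the 24 h TGFβ library and 1 without the 6, 12 or 24 h medium or the 12 h TGFβ library.

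Growth factor and Notch genes changed in both directions. Of 28 growth factors, receptors and angiogenic genes 8 were called higher and 5 lower (10 and 4 without the 6 h medium library), and of 19 Notch and Wnt genes 7 and 2 (6 and 2), against 11.7 and 11.6% of all genes. The 7 became 4 without the 24 h medium or the 12 or 24 h TGFβ library. Igfbp3, which binds insulin-like growth factors, read 185, 90.2, 188 and 209 CPM in medium and 390.4, 349, 467 and 436 in TGFβ (log2 fold change 1.30 ± 0.17 SE with adjusted p = 1.13e-05). Jag1, a Notch ligand that TGFβ is known to raise, read 43.9, 41.6, 43.6 and 42.5 in medium and 104, 90.6, 196 and 209 in TGFβ (log2 fold change 1.70 ± 0.20 SE with adjusted p = 3.97e-06). In both genes the groups did not overlap. The Notch target Hes1 (0.50, adjusted p = 5.64e-05) and the receptor Notch2 (0.47, adjusted p = 1.73e-04) rose, and Notch1 fell (-0.41, adjusted p = 0.00356). Hbegf, a ligand of EGFR (1.08, adjusted p = 1.54e-05), and Met, the receptor of hepatocyte growth factor (0.81, adjusted p = 1.32e-04), rose. Hbegf was not called without the duration term (adjusted p = 0.0792). The fall of Igfbp5 (-1.44, adjusted p = 0.00718) and of Nrp1 (-1.46, adjusted p = 0.00324) shrank to -0.42 and -0.78 without the 6 h medium library.

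Of 27 DNA replication and G1/S genes 11 were called higher and 0 lower (median 0.31), but 5 and 1 without the 6 h medium library (median 0.13). Of 24 mitosis genes 3 were called higher and 0 lower, or 1 and 1 without that library, against 11.7% of all genes called higher. Those 3 became 6 without the 2 h medium, 5 without the 12 h medium and 0 without the 6 or 24 h TGFβ library. The 11 replication genes became 6 without the 6 or 12 h and 4 without the 24 h TGFβ library. Mki67, the proliferation marker Ki-67, read 350.4, 165, 419.7 and 368 CPM in medium and 314, 347, 535 and 438 in TGFβ and was not called (log2 fold change 0.35 ± 0.17 SE with adjusted p = 0.144). Pcna, the replication clamp, was called (0.36, adjusted p = 0.0151) but not without the 6 h medium library (adjusted p = 0.0691) or the 24 h TGFβ library (0.0631), and Ccnd1, cyclin D1, was not called (0.28, adjusted p = 0.116) except without the 2 h medium library (0.0393).

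Of 11 CDK inhibitors and growth arrest genes 4 were called lower, of 18 p53 targets 8 and of 23 BCL2 family and caspase genes 11, with 0 higher in each, and without the 6 h medium library 4, 10 and 10. The 11 became 7 without the 12 h medium or the 24 h TGFβ library. The counts of this paragraph stand against 11.7% of all genes called higher and 11.6% lower (10.4 and 10.6% without the 6 h medium library). Plk2, a p53-induced kinase of the polo family, read 62.6, 125, 47.2 and 45.2 CPM in medium and 32.6, 42.8, 22.0 and 20.4 in TGFβ. Every TGFβ library was below every medium library (log2 fold change -1.20 ± 0.15 SE with adjusted p = 4.30e-06). Eda2r, a death receptor (-0.55, adjusted p = 0.00221), and Bax, which opens the mitochondrial outer membrane (-0.43, adjusted p = 0.00767), fell. Bmf, a BH3-only protein (-1.35, adjusted p = 2.41e-04), Gsdmd (-1.36, adjusted p = 0.00168) and Casp1, the inflammatory caspase (-0.99, adjusted p = 0.0172), fell too, with overlapping groups for Bmf, and Casp1 lost its call without the 12 or 24 h TGFβ library (adjusted p = 0.0760 and 0.0596). Bmf was not called without the duration term (adjusted p = 0.0977). Of 18 outputs of the MAPK pathway, which mutant NRAS drives, 4 were called higher and 3 lower (2 and 3 without the 6 h medium library), and 2 were higher without the 12 h medium or the 24 h TGFβ library as well. Dusp5, a nuclear ERK phosphatase, rose with overlapping groups (1.06, adjusted p = 1.10e-04), and Spry1, an inhibitor of RAS signalling, was called lower (-0.82, adjusted p = 0.00923) but not without the 6 h medium library (-0.36, adjusted p = 0.0700).

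Of 29 glycolysis and hypoxia genes 12 were called higher and 0 lower (10 and 0 without the 6 h medium library), a count that became 3 without the 12 h medium or the 12 h TGFβ library, 6 without the 24 h medium and 5 without the 24 h TGFβ library. Ndrg1, a hypoxia-induced gene that is linked to metastasis, rose from 52.8 to 116 CPM (1.04, adjusted p = 2.90e-05), and the glucose transporter Slc2a1 from 119 to 147 CPM (0.30, adjusted p = 0.0129), which was not called without the 12 h medium or the 12 h TGFβ library (adjusted p = 0.0586 and 0.0513). Of 30 genes of cholesterol and fatty acid synthesis 9 were called higher and 2 lower (10 and 1), with 3 higher without the 24 h medium library and 5 or 4 without the 12 or 24 h TGFβ library. Acly, which makes cytosolic acetyl-CoA, rose from 187 to 248 CPM (0.40, adjusted p = 7.12e-06), and Srebf1, a factor that drives lipid synthesis, fell (-0.37, adjusted p = 0.00187). Of 24 amino acid stress and unfolded protein genes 4 were called higher and 6 lower, and 0 and 9 without the 6 h medium library. The 6 became 1 without the 12 h medium library and 2 without the 24 h medium or the 12 h TGFβ library, and the 4 became 0 without the 6 h TGFβ library. Of 23 antioxidant genes 4 were higher and 6 lower (4 and 5), among them Nqo1, a quinone reductase, lower (-0.96, adjusted p = 7.59e-04), and Sod2, the mitochondrial superoxide dismutase, higher (0.31, adjusted p = 0.00169). Nqo1 was not called without the duration term (adjusted p = 0.0738). Of 9 complement genes 4 were lower and 0 higher (3 and 0). For all lists of this paragraph the shares of all genes were 11.7% higher and 11.6% lower (10.4 and 10.6% without the 6 h medium library).

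Gpnmb, a melanosomal glycoprotein under MITF, read 170.4, 275, 153 and 151 CPM in medium and 71.7, 83.2, 49.0 and 65.0 in TGFβ, lower in each TGFβ library than in any medium library (log2 fold change -1.47 ± 0.27 SE with adjusted p = 4.31e-04). Mitf, the master factor of melanocytes, was called lower with overlapping groups (-0.41, adjusted p = 0.00136). Of 16 genes of the neural crest and undifferentiated state 3 were higher and 3 lower (3 and 1 without the 6 h medium library), with Sox9 higher (0.63, adjusted p = 6.53e-04) and Egfr higher (0.53, adjusted p = 0.0123; 0.84 without that library). Egfr was not called without the 12 or 24 h medium library (adjusted p = 0.0625 and 0.0598). Of 15 reference genes 5, among them Actb, Tfrc and Ppia, were called higher and 0 lower, with a median of 0.16, and the same 5 and 0 were counted with another scaling, so that changes near this size cannot be told apart from the scale of the data. Ppia was not called without the 6 h medium or 2 h TGFβ library (adjusted p = 0.0550 and 0.0631), nor Tfrc without the 24 h medium or the 12 or 24 h TGFβ library (0.0599, 0.0696 and 0.0504).

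The same 24 h of TGFβ was also measured in 8 libraries that share none with the comparison, in cells whose first period was IFNγ rather than medium. There 1084 genes (7.26%) were called, 541 higher (3.62%) and 543 lower (3.64%). Of the 1740 genes higher after medium, 1652 (94.9%) were above 0 after IFNγ, where 49.2% of all tested genes were, and 466 were called. Of the 1736 lower genes, 1664 (95.9%) were below 0 and 444 were called. No gene was called in opposite directions. Over the 3476 genes called after medium the mean log2 CPM differences correlated with r = 0.875 (0.853 without the 6 h medium library), with a slope of 0.576, and over all genes tested with r = 0.683, as a description across genes, which are not independent. The difference of the effects called 0 genes with edgeR and 0 with DESeq2 (1078 at an unadjusted edgeR p below 0.05).

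After IFNγ the log2 fold changes were 0.64 for Smad7 (adjusted p = 7.19e-04), 1.92 for Fbln2 (3.60e-07), 1.90 for Tnnt2 (6.46e-12) and 1.14 for Col7a1 (3.81e-05). Genes of the interferon lists had smaller values: Oas2 read -0.94 (0.427), H2-K1 -0.30 (0.666) and Nlrc5 -0.29 (0.581), none of them called. Of the 40 antiviral, 17 GTPase and 24 MHC class I genes 0 were called after IFNγ, with medians of -0.34, -0.62 and -0.31. Of all genes 3.62% were called higher and 3.64% lower there. Skil, which was not called after medium, was called higher after IFNγ (0.31, adjusted p = 5.44e-04). A direct test of these differences called no gene, so the effects are not shown to differ.

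**Figure D5:**
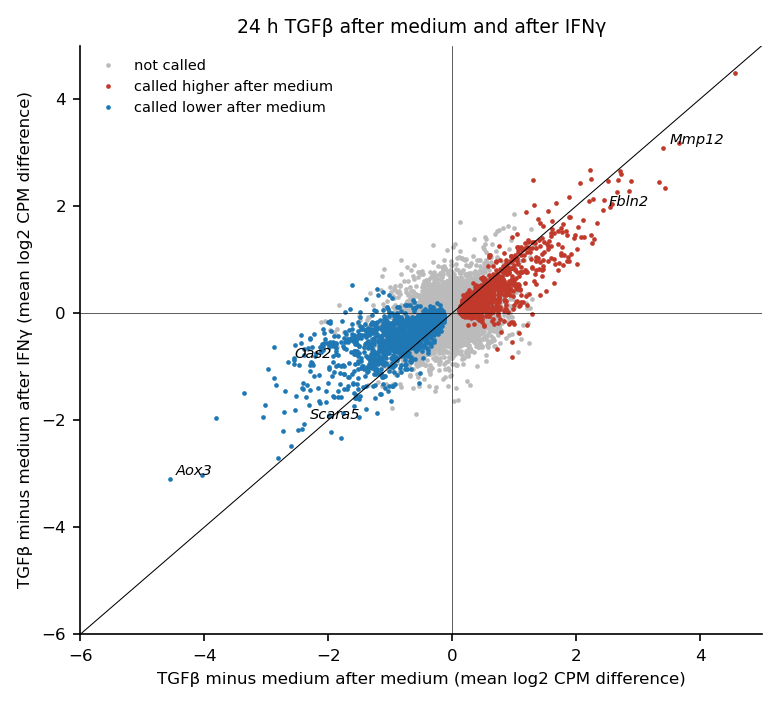
Mean log2 CPM difference between TGFβ and medium after a medium first period (horizontal) and after an IFNγ first period (vertical) for the genes tested, with genes called after medium in colour. The called genes lie along a slope of 0.576, with r = 0.875.

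The libraries collected in TGFβ were also set against the 4 that had TGFβ first and then 24 h of medium. No gene was called with edgeR, 928 had an unadjusted p below 0.05, and DESeq2 called 33. The log2 fold changes of present over withdrawn were 0.29 for Smad7 (SE 0.11) and -0.45 for Fbln2 (SE 0.18). This does not show that the states are alike.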

How the data were processed

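Gene counts of 29 libraries were deposited by the authors in 1 table of 28229 genes. HISAT and GRCm38 are named without versions in the submitters' processing notes, and for the counting tool, annotation and strand setting the sources used here give nothing. Read counts per gene were used as deposited. Counts were filtered by group at a minimum count of 10, scaled by TMM and tested with edgeR 4.0.16 (R 4.3.3) by the quasi-likelihood method over all 29 libraries, with group and first-period duration as terms and 18 residual degrees of freedom. P-values were Benjamini-Hochberg adjusted over all 14935 genes and called below 0.05. CPM values use TMM-scaled library sizes, and log2 fold changes compare TGFβ with medium. The log2 fold changes are adjusted for the duration term over all 29 libraries, so they can differ from the ratio of the mean CPM values. Shared sequence between gene family members, and overlapping or antisense genes, may split reads.

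The members and gene lists (35) were chosen with earlier results of these data known. Named genes are the 15 highest and 15 lowest called with and without the 6 h medium library, with the same sign at 4 durations and a mean of at least 5 CPM in 1 group, plus up to 6 per list; all other genes were named after their values were seen, and a few genes are not reported here. No 2 libraries of these groups agreed within sampling noise (chi-square per degree of freedom at least 3.73). The comparison of durations by 12 and 24 h against 2 and 6 h was added after the data were seen. Promoters (10069 genes matched) are from RefSeq, GRCm38.p6. The model was also run on simulated counts with known changes, the outcome of which is not given here. Alternatives were no duration term, the 8 libraries alone, RLE scaling, DESeq2 1.42.0, other count filters, and omission of libraries.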

Additional observations from a re-analysis of the deposited data

Results flagged for a closer look

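The 6 h medium library lay apart from the other 3 medium libraries for 15 of the genes given library by library, by the gap between it and its nearest neighbour relative to the range (Dixon's 95% critical value for 4 samples). It was the highest of its group for Tgfbr1 (166 CPM), Tgfbr3 (149.9 CPM), Pmepa1 (173 CPM), Mmp12 (4.80 CPM), Aox3 (27.2 CPM), Cpm (185 CPM), Scara5 (39.2 CPM), Thbs2 (3520.1 CPM), Col3a1 (1461 CPM), Gpnmb (275 CPM) and Fn1 (10285 CPM). It was the lowest for Fbln2 (18.7 CPM), Ccbe1 (12.0 CPM), Gbp2 (97.9 CPM) and Nt5e (69.7 CPM). Its mitochondrial share of 1.24% and its SD of 0.596 from the other medium libraries were outlying as well. The 24 h medium library was the highest for Itgb1 (1239.9 CPM). Of 88 groups of 4 tested, 18 were outlying (20.5%), 17 of them in the 6 h medium library. That library was known beforehand to stand apart, the genes were chosen with results of these data known, and the groups share the same libraries. The share of outlying groups therefore cannot be compared with a chance rate.

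The TGFβ effect differed between 12 and 24 h and 2 and 6 h of first medium period, higher for 78 genes and lower for 216, by a test of the difference itself. The split was drawn after the TGFβ libraries were seen to fall into these pairs, so it is no independent test. A slope on log2 hours called 0 genes with edgeR (612 at an unadjusted p below 0.05), and the split called 24 on the 8 libraries alone.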

How the results depend on the processing

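Depth was similar in the 8 libraries, at 17179530 to 21075151 reads in genes, and the effect of depth on the calls was not tested. First-period duration served as the replicate block. Libraries of the same duration deviated from their group means with correlations of 0.0768, 0.176, 0.0842 and 0.0869 for 2, 6, 12 and 24 h, not all over 0.1, so the pairing is not established by the data, although each was higher than with any other duration (at most 0.0385). With no replicate block 1726 genes were called (846 higher, 880 lower), and in IFNγ-pretreated cells 488. The 8 libraries alone gave 1047 (516 and 531) with the block and 512 (252 and 260) without it. Leaving out all libraries of 12 h gave 1847 (919 and 928) and of 24 h 2234 (1075 and 1159).

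Leaving out 1 library gave 2558 to 3720 calls (1244 to 1849 higher, 1296 to 1871 lower), 686 to 1061 in IFNγ-pretreated cells, 0 to 20 for the difference of effects and 0 to 6 for TGFβ present against withdrawn. The duration slope called 0 to 712 genes, the most without the 2 h medium library. The split by duration called 294, then 173 without the 6 h medium library, 24 on the 8 libraries alone, and 118, 159, 108 and 225 without the 2, 6, 12 or 24 h TGFβ library. TGFβ present against withdrawn called 3 with RLE scaling, 33 with DESeq2, 16 with no count filter and 10 without the 6 h medium library. The cause of these changes was not tested beyond fewer samples.

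Over the 233 genes tracked (206 by the naming rule, the others added after their values were seen), 3605 of 4421 alternatives kept the direction and side of the threshold, 807 lost the call, 9 gained it and 0 reversed. Of 1330 alternative counts of list members 305 moved by over 1.5 times.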
